A study of Mus musculus with 6 samples.

Results

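ISG15 is a small ubiquitin-like protein that cells make in response to type I interferon and attach to other proteins, and the 5 genes described here encode the modifier and the enzymes that put it on and take it off: *Isg15*, *Uba7*, *Ube2l6*, *Herc6* and *Usp18*. They were taken by gene name from a table of 29097 genes measured in peripheral blood (PB) neutrophils, and their difference between LIP and Ctrl mice was already known when they were chosen, so that difference is described below and not tested. All 5 were in the table, and all 5 passed the filter of a mean FPKM of at least 1 that left 10440 genes. The samples were CD45+CD11b+Ly6G+ cells sorted from the blood of C57BL/6 male mice of 8 weeks, which had either carried silk ligatures for 14 d (ligature-induced periodontitis, LIP) or had been left unligated (Ctrl). All mice were wild type with no other treatment in either group. There were 3 Smart-seq2 libraries per group, each from the pooled cells of 5 mice, so the spread between libraries is the spread between pools and hides that between animals. The comparison asks how blood neutrophils differ in transcription once periodontitis is established.

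ISG15 conjugation, or ISGylation, runs like ubiquitination. UBA7, the E1 enzyme, activates ISG15 with ATP. UBE2L6, the E2 enzyme, receives it, and HERC6, the main E3 ligase for ISG15 in the mouse, passes it to lysines of target proteins, many of which are newly made. USP18 cleaves ISG15 from its targets and also binds the IFNAR2 chain of the type I interferon receptor, where it dampens signalling. Unconjugated ISG15 can leave the cell and act on lymphocytes through the integrin LFA-1. The genes of ISG15 and of these enzymes are known to be induced by interferon through the transcription factor complex ISGF3. Neutrophils are known to be among the cells that store and release ISG15.

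The 4 genes whose promoter is in the RefSeq table used here are shown by the 120 bases before their start site, because ISGF3 reads a short DNA element, the interferon-stimulated response element, and the genes differ in whether its core lies there. Sequences run 5′ to 3′ in the direction of the gene, with GRCm38.p6 coordinates, and capitals mark the matches to the core of that element, GAAA followed by any 2 bases and again GAAA, searched on both strands.
Isg15 (chr4:156200819-156200938, minus strand): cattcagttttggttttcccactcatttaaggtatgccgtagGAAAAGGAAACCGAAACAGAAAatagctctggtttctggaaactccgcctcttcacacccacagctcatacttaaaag
Uba7 (chr9:107975447-107975566, plus strand): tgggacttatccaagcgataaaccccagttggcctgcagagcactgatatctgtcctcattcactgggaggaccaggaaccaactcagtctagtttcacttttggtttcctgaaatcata
Ube2l6 (chr2:84798708-84798827, plus strand): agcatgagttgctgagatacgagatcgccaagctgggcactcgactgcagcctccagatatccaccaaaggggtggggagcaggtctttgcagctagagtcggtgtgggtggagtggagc
Herc6 (chr6:57580872-57580991, plus strand): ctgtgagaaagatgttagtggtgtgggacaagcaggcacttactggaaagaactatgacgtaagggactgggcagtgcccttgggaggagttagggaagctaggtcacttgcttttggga
The *Isg15* promoter held 3 overlapping matches, GAAAAGGAAA, GAAACCGAAA and GAAACAGAAA, whose first bases lay at -78, -72 and -66, counted back from -1 as the base before the start site. No match to this core was found in the windows of *Uba7*, *Ube2l6* and *Herc6*, from 250 bases before to 50 bases after the start site. The core occurred in 1131 of all 32851 such windows, which is 3.44%, and 3 or more matches occurred in 5 windows, those of *Isg15*, *Cybb*, *Washc3*, *Gm33857* and *Gm3512*. The core of the gamma-activated site, TTCNNNGAA, an element of the interferon gamma response, was in none of the 4 windows and in 8.30% of all. With the first letter of the response element core left off (AAANNGAAA, a form tried after the windows had been seen), *Uba7* also held 1 match, at -27 on the other strand, so that 2 of the 4 genes held a match in place of 1, and the share of all windows rose to 10.6%. The start sites are those of RefSeq and need not be the gene starts given below. That of *Uba7* lies inside the gene as deposited, which begins at 107975505, before the last bases shown for it. The *Uba7* match at -27 therefore lies inside the gene so placed. All these matches are of letters in a window, and no binding was measured.

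The libraries held between 52186555 and 57262379 reads counted on genes. The marker genes of the sorted cells were present in every library: the 11 neutrophil markers, among them *Ly6g*, *S100a8* and *Csf3r*, summed to between 14916 and 18193 FPKM in Ctrl and between 51770 and 56525 FPKM in LIP. FPKM is the number of fragments on a gene, divided by the length of the gene and by the size of the library. RNA of other blood cells was present as well. The 8 erythroid markers in the table, of which 7 passed the filter, summed to between 180633 and 186837 FPKM in Ctrl and to between 19478 and 20186 FPKM in LIP, and no marker of any list was at 0 in all libraries. In sorted pools such as these, fewer cells of a type and less RNA per cell cannot be told apart.

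The modifier and the deconjugase were higher in every LIP library than in any Ctrl library, the E2 was lower in every LIP library, and the E1 and E3 lay closer to the spread between pools. By the edgeR quasi-likelihood test over all 10440 genes with Benjamini-Hochberg adjustment, 53.6% of all genes were called at an adjusted p under 0.05, 26.5% as higher in LIP and 27.2% as lower, which is 2766 and 2835 genes. All 5 genes were among these, 4 higher and 1 lower, a count that comes from the same contrast by which the genes were chosen and from which nothing is read. With library totals in place of TMM factors the split of all genes was 1919 higher and 4146 lower, and *Uba7* and *Herc6* were not called. The median log2 fold change was 0.70 over the 5 genes and -0.09 over all genes tested.

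*Isg15* (ENSMUSG00000035692, chr4:156199455-156200796 on the minus strand, GRCm38) encodes the modifier. It is a short gene with 2 exons and 161 codons in its longest coding transcript. Its FPKM was 17.1, 17.7 and 16.4 in Ctrl replicates 1 to 3 and 33.3, 34.2 and 35.4 in LIP replicates 1 to 3. The 3 LIP libraries lay close together and far above the 3 Ctrl libraries. Behind these values were 654 to 734 reads in Ctrl and 1408 to 1467 reads in LIP. In CPM, which divides reads by the library total after TMM scaling and not by gene length, the mean rose from 11.6 ± 0.545 to 28.9 ± 0.799 (SD over 3 libraries), a log2 fold change of 1.31 (SE 0.187) or 2.49-fold. Among the 10440 genes *Isg15* moved from rank 2373 by mean FPKM in Ctrl to rank 1130 in LIP.

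*Usp18* (ENSMUSG00000030107, chr6:121245906-121270917, plus strand), the deconjugase, had 11 exons and 368 codons. Its FPKM was 8.11, 9.40 and 8.03 in the Ctrl libraries and 15.5, 14.0 and 16.0 in the LIP libraries, so that the groups did not overlap. Its log2 fold change was 1.14 (SE 0.159), or 2.20-fold, with 23.1 ± 2.42 CPM in Ctrl and 50.9 ± 3.64 CPM in LIP (SD over 3 libraries). The eraser of the modification therefore stood higher in LIP beside the modifier itself. A lincRNA on the opposite strand, *Gm44148*, overlaps *Usp18*. It held 15 to 35 reads in Ctrl and 0 to 13 in LIP, against 1272 to 2631 reads of *Usp18*.

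*Ube2l6* (ENSMUSG00000027078, chr2:84798828-84810176, plus strand), the E2, went the other way and by the most. A gene of 4 exons and 153 codons, it had an FPKM of 169.9, 223 and 173 in the Ctrl libraries and of 24.1, 23.6 and 27.9 in the LIP libraries. The lowest Ctrl library stood several times above the highest LIP library, with 19459 to 26221 reads in Ctrl and 2876 to 3152 in LIP. The mean fell from 366 ± 62.9 CPM to 60.4 ± 5.56 CPM (SD over 3 libraries), a log2 fold change of -2.60 (SE 0.144), with Ctrl 6.05 times LIP in CPM and 7.48 times in FPKM. It had been the most abundant of the 5 in Ctrl, at rank 230 of the 10440 genes, and stood at rank 1482 in LIP. By log2 fold change it ranked 264 from the lowest.

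*Uba7* (ENSMUSG00000032596, chr9:107975505-107984058, plus strand), the E1, is the start of the cascade and has 24 exons and 977 codons. Its FPKM was 17.3, 10.5 and 13.9 in Ctrl and 15.2, 15.2 and 16.9 in LIP. Ctrl replicate 1 was above all LIP libraries in FPKM, whereas in CPM, where TMM scaling raises the LIP libraries against the Ctrl libraries, the groups did not overlap. The CPM mean was 90.2 ± 20.6 in Ctrl and 127 ± 7.46 in LIP (SD over 3 libraries), a log2 fold change of 0.49 (SE 0.162). With library totals in place of TMM this became 0.17.

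*Herc6* (ENSMUSG00000029798, chr6:57581000-57664632, plus strand), the E3, was the least abundant of the 5. It is a long gene with 23 exons and 1003 codons. Its FPKM was 4.24, 2.13 and 3.14 in Ctrl and 5.24, 3.69 and 3.50 in LIP, and the groups overlapped, since Ctrl replicate 1 exceeded LIP replicates 2 and 3. In CPM the groups did not overlap, with means of 28.5 ± 9.02 in Ctrl and 46.3 ± 10.9 in LIP (SD over 3 libraries) and a log2 fold change of 0.70 (SE 0.250), which fell to 0.37 with library totals. *Gm45193*, on the same strand, and *Gm19244*, on the other, overlap *Herc6* with at most 22 and 3 reads.

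Non-overlap in CPM in either direction was seen for all 5 genes, against 63.4% of all genes tested, with 30.3% higher and 33.1% lower in LIP. The spread within a group differed between the genes. In Ctrl the CPM of *Isg15* had a coefficient of variation of 4.68% and that of *Usp18* 10.5%, while it was 22.8% for *Uba7* and 31.6% for *Herc6*. In LIP it was 2.76%, 7.16%, 5.89% and 23.6% for the same genes. Within Ctrl, *Uba7* and *Herc6* shared their lowest library, replicate 2, which was the highest of the 3 for *Isg15*, *Ube2l6* and *Usp18*.

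**Figure D1:**
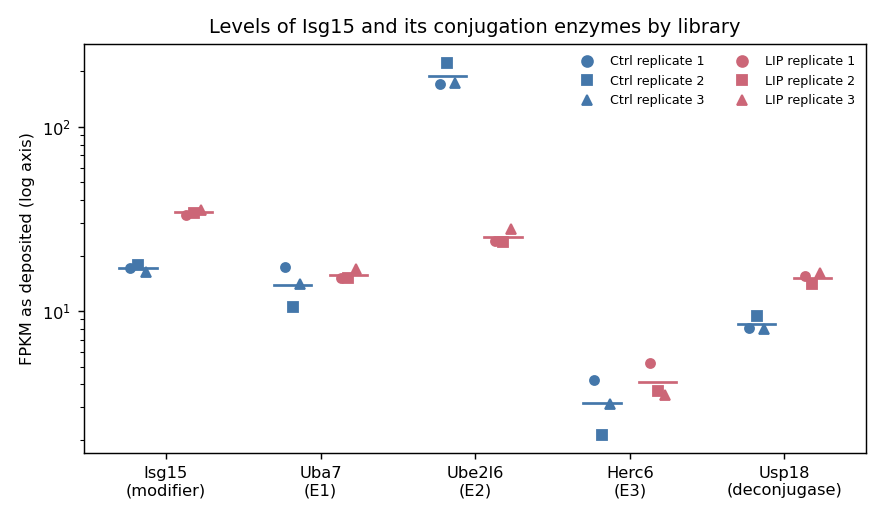
Deposited FPKM (log axis) of the 5 genes in the 6 libraries, with a horizontal line at the mean of each group of 3. *Isg15* and *Usp18* lie higher in all LIP libraries, *Ube2l6* falls from a mean of 189 to 25.2 FPKM, and *Uba7* and *Herc6* overlap between the groups.

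The order of the 5 genes by FPKM, which divides by gene length, changed between the groups. In Ctrl, *Ube2l6* stood first with 189 ± 29.7 FPKM, followed by *Isg15* with 17.1 ± 0.660 and *Uba7* with 13.9 ± 3.40, whose libraries overlapped, then *Usp18* with 8.51 ± 0.769 and *Herc6* with 3.17 ± 1.05 (SD over 3 libraries). In LIP, *Isg15* stood first with 34.3 ± 1.08 FPKM, ahead of *Ube2l6* with 25.2 ± 2.37, and *Uba7* with 15.7 ± 0.963 and *Usp18* with 15.2 ± 1.06 overlapped above *Herc6* with 4.15 ± 0.957 (SD over 3 libraries). The transcript of the modifier, which had been the scarcer of the pair, was thus the more abundant one in the LIP pools.

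A ratio of FPKM within a library does not depend on how libraries are scaled. It does depend on the mix of cells in the pool, since the transcripts of a ratio can come from different cells. The part of that mix in the ratios below was not tested. The ratio of *Isg15* to *Ube2l6*, modifier to E2, was 0.101, 0.0794 and 0.0947 in the Ctrl libraries and 1.38, 1.45 and 1.27 in the LIP libraries, and its mean was 14.9 times higher in LIP. *Isg15* to *Uba7*, modifier to E1, was 0.990, 1.69 and 1.17 in Ctrl and 2.19, 2.25 and 2.10 in LIP, without overlap. The ratio of *Isg15* to *Usp18*, modifier to deconjugase, moved least, from 2.01 ± 0.117 to 2.27 ± 0.158 (SD over 3 libraries). The highest Ctrl library, at 2.11, came close to the lowest LIP library, at 2.14. *Isg15* to *Herc6*, modifier to E3, overlapped between groups, at 4.04, 8.31 and 5.21 in Ctrl and 6.35, 9.26 and 10.1 in LIP.

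**Figure D2:**
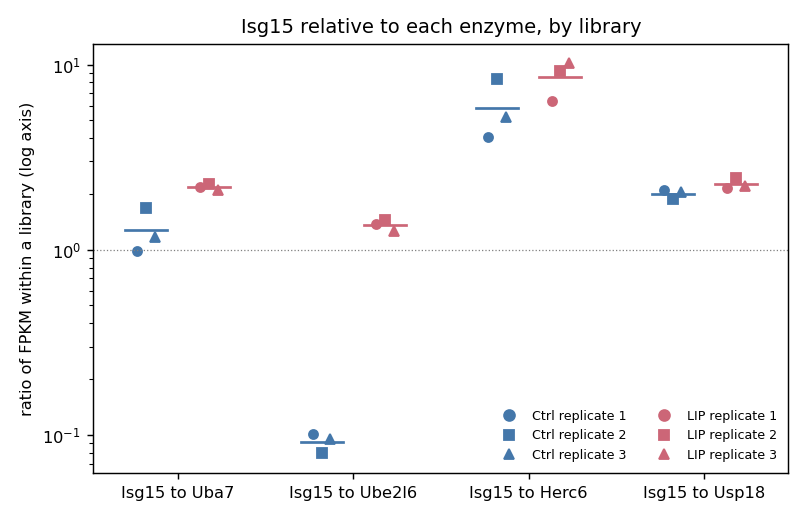
FPKM of *Isg15* divided by that of each enzyme in the same library (log axis), for the 3 Ctrl and 3 LIP libraries, with a line at each group mean and a dotted line at equal FPKM. The ratio to *Ube2l6* crosses from 0.0916 ± 0.0110 to 1.37 ± 0.0910 (SD over 3 libraries), while the ratio to *Usp18* stays near 2.01 to 2.27.

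How alike the 5 genes were over the 6 libraries was measured by the root mean square distance between their log2 CPM values, each centred on its own mean, where 0 means the same profile. *Isg15* and *Usp18* were the closest pair at 0.114, and *Uba7* and *Herc6* followed at 0.254. The pairs across these couples lay at 0.420 to 0.470, and *Ube2l6* lay at 1.58 to 1.95 from each of the others. Of 5322 other genes whose mean FPKM reached 5, the nearest to *Isg15* were *Gabarap*, which encodes a ubiquitin-like protein of autophagosomes, at 0.0304, and *Pgs1*, an enzyme of cardiolipin synthesis, at 0.0337. Nearest to *Usp18* were *Grn*, which encodes progranulin, at 0.0360 and *Pef1*, a calcium-binding protein gene, at 0.0447. Nearest to *Uba7* were *Slc44a2*, a choline transporter-like gene that also carries a neutrophil antigen in humans, at 0.0492 and *Rnf40*, a ubiquitin ligase of histone H2B, at 0.0538. *Herc6* had no neighbour as close, with *Erbin*, a scaffold protein gene, at 0.111 and *Stag2*, a cohesin subunit gene, at 0.118. With 2 groups so far apart at many genes, a small distance mainly means a difference of like size.

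The nearest genes to *Ube2l6* were of another cell type. They were *Igkj1*, at a distance of 0.0797, and *Igkv3-2*, at 0.0842, both segments of the immunoglobulin kappa light chain that B cells rearrange. Their log2 fold changes of -2.66 and -2.68 stood beside -2.60 for *Ube2l6*. Both belong to a multigene family whose reads can be split between segments, which makes their single values uncertain.

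The B cell, T cell and erythroid marker lists were lower in LIP, with median log2 fold changes of -2.54, -2.41 and -3.01. All 10 B cell markers were called lower, with log2 fold changes of -2.89 to -2.15 and a summed level of 3752 to 4046 FPKM in Ctrl and 543 to 606 FPKM in LIP. All 10 T cell markers were called lower, at -3.38 to -1.32, with sums of 238 to 262 FPKM in Ctrl and 40.5 to 50.8 FPKM in LIP. The 7 erythroid markers tested were called lower as well, at -3.99 to -2.80, and the 4 in the table that are not haemoglobin genes summed to 347 to 453 FPKM in Ctrl and 33.3 to 35.8 FPKM in LIP. None of the defining markers *Cd79a*, *Cd3e* and *Alas2* was at 0 in a Ctrl library.

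Ratios of the FPKM of *Ube2l6* to these sums, none of which contains it, are given as percentages. The ratio to the B cell marker sum was 4.86% ± 0.558 for Ctrl and 4.32% ± 0.387 for LIP (SD over 3 libraries). The ratio to the erythroid sum was 0.102% ± 0.0153 for Ctrl and 0.128% ± 0.0132 for LIP, and the ratio to the T cell sum was 75.3% ± 8.79 for Ctrl and 54.9% ± 12.1 for LIP (SD over 3 libraries). Without the haemoglobin genes the ratio to the erythroid sum was 48.4% ± 1.10 for Ctrl and 73.9% ± 8.87 for LIP (SD over 3 libraries), without overlap. The ratio to the neutrophil marker sum, in contrast, went from 1.13% ± 0.106 to 0.0472% ± 0.00622 (SD over 3 libraries). The part of these other cells in the lower *Ube2l6* of LIP was not tested.

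The genes that were higher in LIP stood beside neutrophil markers that were higher still. All 11 neutrophil markers were called higher, with log2 fold changes of 1.40 to 2.51 and a median of 1.84, above the 1.31 of *Isg15* and the 1.14 of *Usp18*. As a ratio to the neutrophil marker sum, which contains neither gene, *Isg15* went from 0.103% ± 0.0105 in Ctrl to 0.0641% ± 0.00405 in LIP and *Usp18* from 0.0510% ± 0.00372 to 0.0284% ± 0.00325 (SD over 3 libraries). All 7 monocyte markers and all 6 platelet markers were called higher too, with sums of 124 to 149 FPKM in Ctrl and 238.3 to 249.4 FPKM in LIP for monocytes, and of 768 to 1027 FPKM in Ctrl and 1654 to 1924 FPKM in LIP for platelets. Of the 6 NK cell markers 2 were called higher, and their sum overlapped between the groups. As a ratio to the monocyte sum *Isg15* was 12.3% ± 1.70 in Ctrl and 14.1% ± 0.669 in LIP (SD over 3 libraries). To the platelet sum it was 1.89% ± 0.292 and 1.97% ± 0.117, and to the NK cell sum 6.89% ± 0.547 and 14.2% ± 0.877. *Usp18*, in the same order, was 6.17% ± 1.21 and 6.24% ± 0.573, 0.939% ± 0.108 and 0.872% ± 0.0578, and 3.42% ± 0.0960 and 6.31% ± 0.737. Of the 6 eosinophil and basophil markers measured, 5 passed the filter, and all 6 together summed to 8.37 to 13.7 FPKM in Ctrl and 13.4 to 18.96 FPKM in LIP. Of the 7 dendritic cell markers 1 passed, and all 7 together summed to 5.04 to 9.09 FPKM in Ctrl and 9.997 to 14.4 FPKM in LIP. What share of the higher *Isg15* and *Usp18* goes with the makeup of the pools was not tested.

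**Figure D3:**
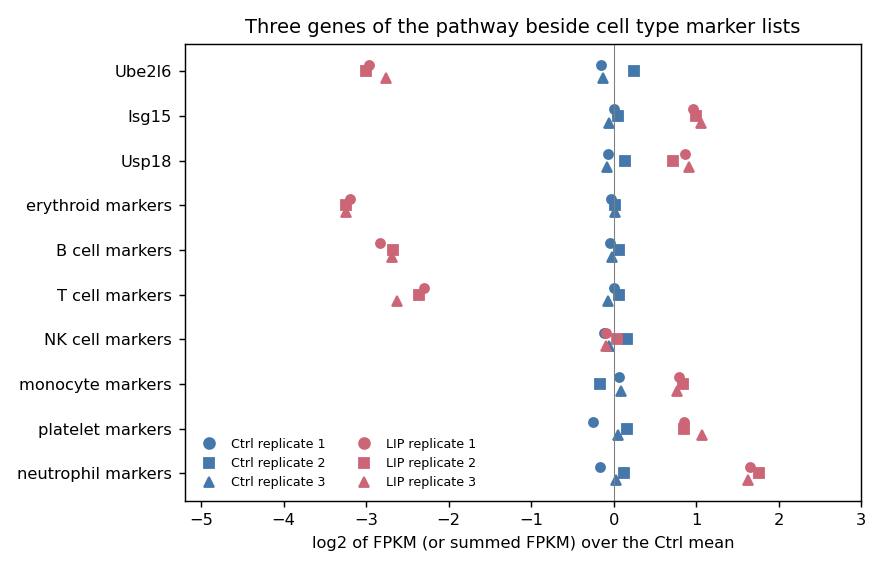
FPKM of *Ube2l6*, *Isg15* and *Usp18* and summed FPKM of 7 lists of cell type markers in each library, as the log2 ratio to the Ctrl mean, with 0 marked by a line. *Ube2l6* sits with the erythroid, B cell and T cell markers on the left, while *Isg15* and *Usp18* sit on the right near the monocyte and platelet markers and short of the neutrophil markers.

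The direction of the higher genes depended on what libraries were scaled to. With library totals in place of TMM, all 4 kept a positive log2 fold change, of 0.99 for *Isg15* and 0.82 for *Usp18*. With scaling to the neutrophil markers, which lowers the median of all genes to -2.06, every one of the 5 was lower in LIP, *Isg15* at -0.64, *Usp18* at -0.81, *Herc6* at -1.28, *Uba7* at -1.48 and *Ube2l6* at -4.55. Taken relative to the median of all genes in the same fit, over all settings tried the log2 fold change was 1.18 to 1.60 for *Isg15* and 1.01 to 1.42 for *Usp18*. It was 0.58 to 1.03 for *Herc6*, 0.36 to 0.78 for *Uba7* and -2.72 to -2.31 for *Ube2l6*. Subtracting the median removes the effect of scaling by construction. These ranges therefore show only the effect of filters, fit methods and libraries left out.

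**Figure D4:**
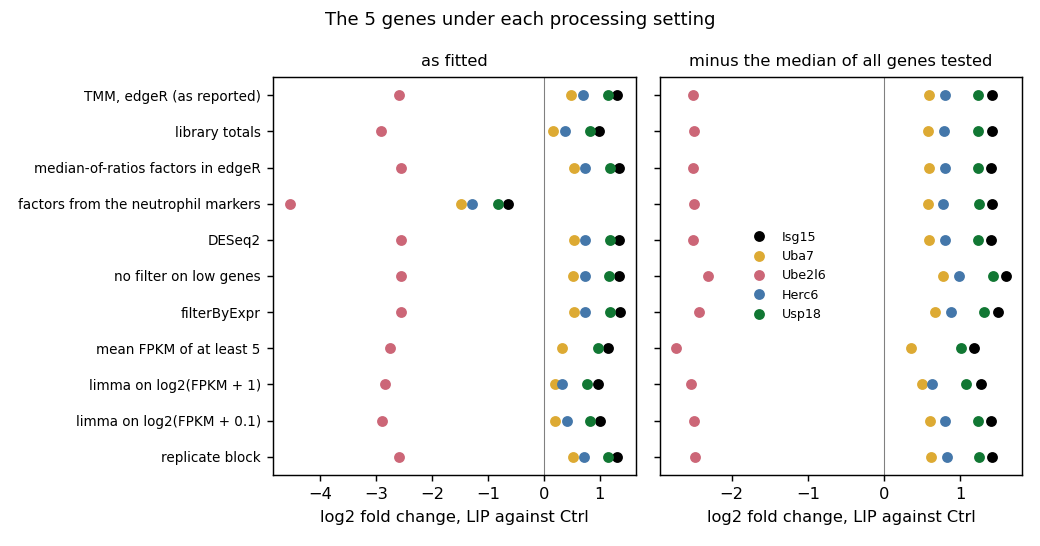
Log2 fold change (LIP against Ctrl) of the 5 genes under each processing setting, as fitted on the left and after subtracting the median of all genes tested in the same fit on the right. The subtraction removes the effect of scaling by construction. On the left the 4 higher genes cross 0 under factors from the neutrophil markers, and on the right the order of the 5 genes is the same in each row drawn (without LIP replicate 1, which is not drawn, *Herc6* at 0.58 lies below *Uba7* at 0.60), with *Herc6* lacking a value where a mean FPKM of at least 5 was required.

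Around these 5 genes, a list of 38 genes holds the receptor and factors that induce them, other enzymes that handle ISG15, proteins reported to carry it and its extracellular receptor. Of these, 33 passed the filter, and 18 were called higher and 3 lower in LIP, which is 54.5% and 9.09% against 26.5% and 27.2% of all genes tested. Their median log2 fold change was 0.52, against -0.09 for all genes. With library totals 12 were higher and 7 lower, and with scaling to the neutrophil markers none was higher and 30 were lower, with none higher at an unadjusted p under 0.05 in edgeR either. The median of the list was 0.49 to 0.79 above that of all genes in the 17 fits, a difference from which scaling drops out by construction. This list and those below were drawn up by function, but with earlier results of these data known. Shares above or below those of all genes are therefore only described, and no excess is read from them.

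The interferon receptor and its signalling factors, 9 genes, all passed the filter, and 6 were called higher and none lower, at a median of 0.52, with 8 of the 9 at an unadjusted p under 0.05. *Jak1*, a kinase bound to the receptor and the most abundant of them, had 77.4 ± 19.7 FPKM in Ctrl and 88.1 ± 7.92 in LIP (SD over 3 libraries), a log2 fold change of 0.50 (SE 0.154, adjusted p = 0.0192 by edgeR). *Jak1* kept this call in 8 of 16 alternative fits. Among the others, it was not called with library totals, nor without Ctrl replicate 3 (adjusted p = 0.0652 by edgeR) or LIP replicate 3 (adjusted p = 0.0554 by edgeR). With scaling to the neutrophil markers *Jak1* was lower in LIP, at -1.48. The next genes are named after their values were seen. *Irf9*, the DNA-binding subunit of ISGF3, rose by 1.11 on the log2 scale (SE 0.111, adjusted p = 1.60e-05 by edgeR), while *Stat2*, another subunit, had a log2 fold change of 0.46 that missed the threshold (adjusted p = 0.0633 by edgeR). *Irf7*, which amplifies interferon transcription, and *Ifnar2*, the receptor chain that USP18 binds, rose by 1.16 and 0.97. *Irf3* (-0.39) and *Tyk2* (0.25) were not called. With scaling to the neutrophil markers *Irf9*, *Irf7* and *Ifnar2* were lower in LIP, at -0.85, -0.79 and -0.99.

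Of 12 other enzymes that handle ISG15, 9 passed the filter, with 2 called higher, 3 called lower and a median of -0.40. The 2 ends of the whole list were here. *Usp2*, a protease reported to act on ISG15 as well as ubiquitin, rose from 1.33 ± 0.307 to 4.89 ± 0.386 FPKM (SD over 3 libraries; log2 fold change 2.19, SE 0.238, adjusted p = 2.93e-05 by edgeR). It overlaps *Gm49380* and *Gm39325*. *Usp2* stood at 0.21 with scaling to the neutrophil markers and was not called (adjusted p = 0.486 by edgeR). *Usp24* fell from 10.7 ± 0.719 to 3.07 ± 0.200 FPKM (SD over 3 libraries; log2 fold change -1.50, SE 0.123, adjusted p = 4.00e-06 by edgeR), and *Usp5* fell by 1.09 on the log2 scale. *Trim25*, which both carries ISG15 and can attach it, was the most abundant of them and had a log2 fold change of 0.36 that missed the threshold (adjusted p = 0.0582 by edgeR).

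Of 15 genes whose proteins have been reported to be ISGylated, 13 passed the filter, and 8 were called higher and none lower, at a median of 0.65. *Hif1a*, the oxygen-regulated transcription factor gene, was the highest of them, at 16.6 ± 5.29 FPKM in Ctrl and 40.0 ± 4.92 in LIP (SD over 3 libraries; log2 fold change 1.58, SE 0.200, adjusted p = 8.42e-05 by edgeR). *Hif1a* stood at -0.40 with scaling to the neutrophil markers and was not called (adjusted p = 0.151 by edgeR). Both genes of LFA-1, the receptor for extracellular ISG15, were called higher. *Itgb2*, its beta chain, rose from 235 ± 32.4 to 520.1 ± 6.996 FPKM (SD over 3 libraries; log2 fold change 1.46, SE 0.0990, adjusted p = 1.24e-06 by edgeR). *Itgb2* is abundant in neutrophils. Its log2 fold change and that of *Hif1a* lay within the 1.40 to 2.51 of the neutrophil markers. Scaled to those markers, *Itgb2* was called lower in LIP, at -0.51.

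Enzymes of the same 4 families that serve ubiquitin and other modifiers did not lean to the higher side. Of 85 such genes, 70 passed the filter, with 12 called higher and 16 lower, which is 17.1% and 22.9% against 26.5% and 27.2% of all genes, and a median of 0.02. By family, 2 of 9 other E1 enzymes were called higher and 2 lower, 5 of 30 other E2 enzymes higher and 6 lower, 1 of 4 other HERC ligases higher and 1 lower, and 4 of 27 other ubiquitin-specific proteases higher and 7 lower. With library totals the counts were 6 higher and 26 lower, and the median lay 0.02 to 0.21 above that of all genes over the 17 fits. Scaling drops out of this difference too. The other enzymes that handle ISG15, with 2 higher and 3 lower of 9, did not lean to the higher side either.

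Relatives of the E1, E2 and E3 were compared with them. *Ube2l3*, the ubiquitin E2 nearest to *Ube2l6* in sequence, had 21.2 ± 1.87 FPKM in Ctrl and 18.8 ± 1.58 in LIP (SD over 3 libraries), a log2 fold change of 0.13 (SE 0.117), and was not called (adjusted p = 0.366 by edgeR). *Uba1*, the main E1 of ubiquitin, had a log2 fold change of 0.52 (SE 0.193, adjusted p = 0.0410 by edgeR), close to the 0.49 of *Uba7*. *Uba1* kept this call in 7 of 16 alternative fits. Among the others, it was not called with library totals, nor without LIP replicate 2 (adjusted p = 0.0831 by edgeR) or LIP replicate 3 (adjusted p = 0.110 by edgeR). Of the small HERC ligases, *Herc4* was called higher, at 0.72 beside the 0.70 of *Herc6*, and *Herc3* lower, at -1.35 (SE 0.459, adjusted p = 0.0294 by edgeR). *Herc3* overlaps *Nap1l5* and lost its call without Ctrl replicate 1 or Ctrl replicate 3, at an adjusted p of 0.0940 and 0.0711 by edgeR. Over all alternatives *Herc3* kept its call in 11 of 15 fits and *Herc4* in 13 of 16. The largest falls in the list were those of the ubiquitin proteases *Usp11* (-2.66) and *Usp10* (-2.57). Their mean FPKM was low, at 4.32 and 3.70 in Ctrl and 0.546 and 0.498 in LIP. These falls are near the median of the B cell markers (-2.54), and the part of other cells in them was not tested. The largest rises were those of *Usp32* (1.59) and *Atg3* (1.58), the E2-like enzyme of autophagy. *Ube2b*, the most abundant of the other E2 enzymes and a partner of RAD18 in DNA repair, rose by 0.63 on the log2 scale, and *Usp25*, the most abundant of the other proteases, was not called (0.15). Under scaling to the neutrophil markers, *Uba1*, *Ube2b*, *Herc4* and *Atg3* were called lower in LIP, at -1.45, -1.33, -1.24 and -0.38. *Usp32* stood at -0.37 there and was not called.

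Among 19 genes of other ubiquitin-like modifiers, 17 passed the filter, with 7 called higher, 3 lower and a median of 0.20. These calls are 41.2% and 17.6%, against 26.5% and 27.2% of all genes tested. The highest were those of autophagy, *Gabarap*, from 152 ± 3.30 to 303 ± 14.0 FPKM (SD over 3 libraries; log2 fold change 1.30), and *Map1lc3b*, from 69.8 ± 6.06 to 114 ± 4.97 FPKM (SD over 3 libraries; log2 fold change 1.02). *Sumo2*, a modifier of the SUMO family, was called lower, with a log2 fold change of -0.97. The ubiquitin gene *Ubb* was far more abundant than *Isg15*, at 1243 ± 186 FPKM in Ctrl and 1206 ± 55.4 in LIP (SD over 3 libraries), and was not called (log2 fold change 0.26, adjusted p = 0.0621 by edgeR). With library totals 2 of the 17 were higher and 6 lower. With scaling to the neutrophil markers 0 were higher and 17 lower, with *Gabarap* at -0.66 and *Map1lc3b* at -0.94.

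**Figure D5:**
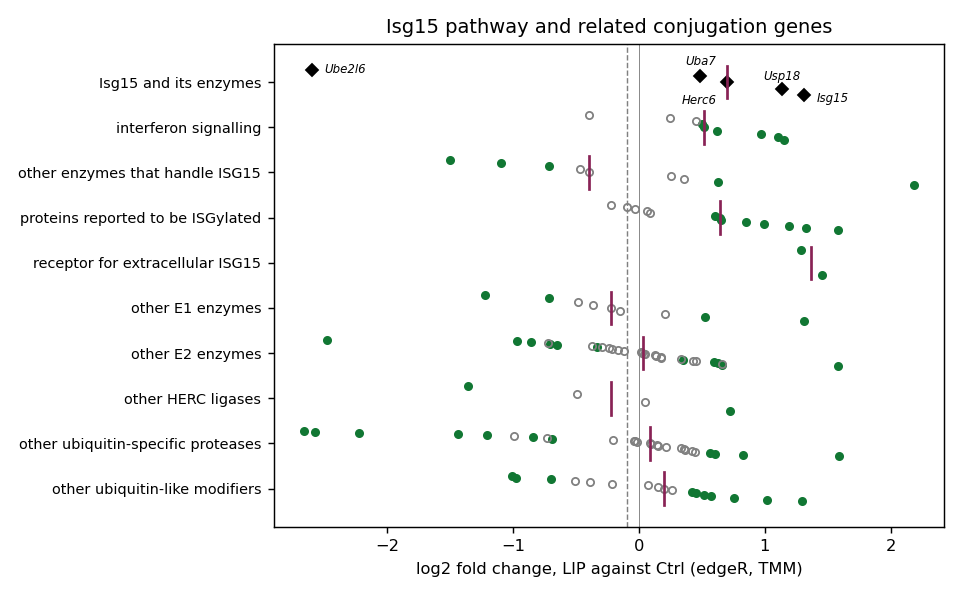
Log2 fold change (LIP against Ctrl, edgeR with TMM) of each gene by functional group, with filled green points for genes called at an adjusted p under 0.05, open grey points for the others and a vertical bar at each group's median. Black diamonds are the 5 genes described here, for which no call is drawn, and the dashed line is the median of all genes tested, -0.09.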

How the data were processed

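Smart-seq2 libraries of PB neutrophils were analysed, 3 from Ctrl and 3 from LIP mice, grouped by their treatment labels. The authors deposited unnormalized counts of reads on each gene and the FPKM values they made from them, with GRCm38 coordinates. Per the labels, reads were paired-end, and the submitters' processing notes name cutadapt 1.9 and FastQC. The aligner, the counting tool and the use of strand are not given in the sources used here. PCR copies are counted as reads, so counting error is a lower limit of the error.

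The 5 genes and all lists were chosen with earlier results of these data known. Counts of genes whose mean FPKM reached 1 were fitted with edgeR 4.0.16 in R 4.3.3 (quasi-likelihood test, TMM factors, Benjamini-Hochberg adjustment over 10440 genes, adjusted p under 0.05), after the fit had been tested on simulated data. The simulation changed 200 genes, evenly up and down, far fewer than the 5601 called here. It therefore did not test the scaling between groups that differ at so many genes. Standard errors were derived from the fold change and the F statistic. Of a gene name on several rows (50 names), the row with the highest mean FPKM was used. No pair of libraries of a group agreed within sampling noise (chi-square per gene 42.5 to 85.2). The common biological coefficient of variation was 0.265. Exon and codon counts are from GENCODE M21, and promoters from RefSeq GRCm38.p6, which matched 4 of the 5 genes.

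Genes named from the lists are the called genes with the highest and lowest log2 fold changes of a list, 2 each, the most abundant gene of each sublist and the closest relatives of the enzymes. For each of the 5 genes the 2 nearest genes by distance are named. Alternatives were library totals, median-of-ratios factors, factors from the neutrophil markers, DESeq2 1.42.0, other filters, limma 3.58.1 on log2(FPKM + 1) and log2(FPKM + 0.1), the replicate number as a block, and each library left out. Some results for single genes are left out.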

Additional observations from a re-analysis of the deposited data

How the results depend on the processing

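*Isg15*, *Ube2l6* and *Usp18* were past the threshold in all fits, but *Isg15* and *Usp18* as lower in LIP with factors from the neutrophil markers. In every other fit that tested them, the 4 genes other than *Ube2l6* kept a positive sign. Calls of the 5 genes come from the contrast by which they were chosen, so they only describe how the fits differ. With factors from the neutrophil markers, 9502 genes were called, 30 higher and 9472 lower. No ISG15 partner was then higher and 30 were lower, and 0 of the enzymes of other modifiers were higher and 69 lower (edgeR, also 0 higher at an unadjusted p under 0.05). *Isg15* stood at -0.64, *Uba7* at -1.48, *Herc6* at -1.28, *Usp18* at -0.81 and *Ube2l6* at -4.55. By construction these factors subtract the rise of the neutrophil markers.

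With library totals, 7 partners were lower, 6 other enzymes were higher and 26 lower, and the log2 fold change was 0.99 for *Isg15*, 0.17 for *Uba7*, -2.91 for *Ube2l6* and 0.82 for *Usp18*. With limma on log2(FPKM + 1), 7 partners were lower, 5 other enzymes were higher and 26 lower, and the values were 0.97, 0.19, -2.85 and 0.77 in the same order. With limma on log2(FPKM + 0.1), 7 partners were lower, 5 other enzymes were higher, and the values were 1.00, 0.20, -2.89 and 0.83. The split of all calls was 2010 higher and 4249 lower with the first pseudocount and 1974 and 4144 with the second. With a mean FPKM of at least 5, fewer genes were tested, 3637 were called (1768 higher and 1869 lower), 7 other enzymes were higher and 10 lower, and *Isg15* stood at 1.15 and *Usp18* at 0.98. *Herc6* has no value there.

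*Uba7* was not past the threshold with library totals, either limma fit, the filter at 5 or no filter. *Herc6* was not with library totals, either limma fit, filterByExpr or no filter. The cause was not tested.

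Leaving out each library in turn gave 4674 to 5385 calls, 2419 to 2615 higher and 2255 to 2770 lower. The log2 fold change was 1.29 to 1.37 for *Isg15*, 0.35 to 0.67 for *Uba7*, -2.67 to -2.43 for *Ube2l6*, 0.49 to 0.96 for *Herc6* and 1.10 to 1.25 for *Usp18*. Of the 6 such fits *Uba7* was past the threshold in 3 (not without Ctrl replicate 3, LIP replicate 2 or LIP replicate 3) and *Herc6* in 2 (without Ctrl replicate 1 or LIP replicate 3). Partners called were 15 to 19 higher and 2 to 3 lower, and other enzymes 10 to 15 higher and 13 to 17 lower.

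Libraries with the same replicate number come from different mice, and their deviations from the group means correlated at -0.0083, 0.0444 and 0.0210, so the numbers do not pair them. Not every library correlated best with its own number. With the replicate block 5546 genes were called in place of 5601, 20 partners were higher and 4 lower, 12 other enzymes were higher and 17 lower, and the 5 genes stood at 1.31, 0.51, -2.59, 0.73 and 1.14 in the order *Isg15*, *Uba7*, *Ube2l6*, *Herc6* and *Usp18*. Median-of-ratios factors and DESeq2 moved no count of calls by over 1.5 times. The lowest count of any of the 5 genes in a library was 654 reads, so depth limits little here.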
